A study of Mus musculus with 6 samples.

Results

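The insulin-like growth factor (IGF) genes examined here were 10 genes of the mouse genome, chosen by symbol: the ligands Igf1 and Igf2, the receptors Igf1r and Igf2r, and the binding proteins Igfbp2, Igfbp3, Igfbp4, Igfbp5, Igfbp6 and Igfbp7. They are 10 of the 54532 genes in the deposited table, and 9 of them reached the mean level required for a test, an FPKM of at least 0.5 over all libraries. Igfbp5 did not. FPKM is the number of sequenced fragments on a gene, scaled by gene length and library size.

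IGF1 and IGF2 are secreted peptides that promote growth and survival of many cell types, among them vascular smooth muscle cells. Both signal through the receptor tyrosine kinase IGF1R to the PI3K, AKT and mTOR pathway, whereas IGF2R, which is also the cation-independent mannose 6-phosphate receptor, carries IGF2 to the lysosome for degradation. The IGF binding proteins hold the peptides outside the cell and release them when proteases cut the binding protein.

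The libraries were made from RNA of cultured cells labelled as mouse vascular smooth muscle cells, genotype WT, which had been transduced with an adenoviral vector. In 3 libraries (Ad-Con) the vector carried a control plasmid, and in the other 3 (Ad-PDK4) an overexpression plasmid for pyruvate dehydrogenase kinase 4, a mitochondrial enzyme that restrains entry of pyruvate into the tricarboxylic acid cycle. According to the study the cells came from mouse aorta and both groups received angiotensin II, which the labels do not mention. The labels give no strain, animal age or promoter of the vector, and do not say whether the libraries of a group came from separate cultures, while the study describes them as biological replicates. The p-values measure the spread between these libraries.

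Depth was 17588942 to 21861872 reads on genes per library. Pdk4, the gene under test, measured 9.50, 10.4 and 10.1 FPKM in Ad-Con and 7.67, 7.40 and 7.38 FPKM in Ad-PDK4. In the libraries labelled as overexpressing it, the gene fell by 0.42 on the log2 scale (SE 0.06, adjusted p = 1.1e-03 by limma with the Benjamini-Hochberg method). Neither whether reads from the plasmid are part of these values nor whether the library labels are right can be told from this gene, and every direction is given by label, as Ad-PDK4 compared with Ad-Con. The labelled cell type was checked against 8 smooth muscle markers. Their summed level was 87.0 to 88.7 FPKM in Ad-Con and 43.2 to 48.0 FPKM in Ad-PDK4, and most of it was Acta2. The defining markers Myh11, Cnn1, Tagln, Des and Myocd had at most 30 reads in any library. These defining markers did not bear out the label, so the cell type is given as labelled. The 8 fibroblast markers summed to 1443 to 1569 FPKM in Ad-Con and 931 to 996 FPKM in Ad-PDK4. Of the 7 tested, 4 were lower and 2 higher. Col1a1, the most abundant of them, fell from 1055 ± 42.4 to 435 ± 49.5 FPKM (limma adjusted p = 1.3e-05), whereas Ly6a rose from 13.3 ± 0.478 to 201 ± 14.9 FPKM (limma adjusted p = 2.9e-08) and Dcn from 90.1 ± 8.20 to 161 ± 19.03 FPKM (limma adjusted p = 4.0e-04). Dpt, Lum and Col3a1 fell like Col1a1, with log2 fold changes of -1.36, -1.16 and -0.86 (limma adjusted p = 7.1e-06, 4.6e-04 and 1.2e-05). Pdgfra measured 20.5 ± 0.729 and 19.9 ± 0.804 FPKM and did not pass. The 12 macrophage markers summed to 15.0 to 17.9 against 5.95 to 7.50 FPKM, mostly Cd68, while Ptprc, Tyrobp, C1qa, C1qb and Itgam had 0 reads in every library. The 8 endothelial markers summed to 0.617 to 0.798 against 0.885 to 1.18 FPKM, and Tie1, Emcn and Cldn5 had 0 reads in every library. The marker levels therefore moved with the groups, as the IGF genes did, and their part in the results was not tested. In RNA from a whole culture, fewer cells expressing a gene and less RNA per cell cannot be told apart.

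Of the 9 IGF genes tested, 4 were higher in Ad-PDK4, 2 were lower and 3 did not pass an adjusted p of 0.05. Igf2, Igfbp3, Igfbp7 and Igf1r rose, and Igfbp2 and Igf2r fell. Among all 13423 genes tested, 21.8% were higher and 20.8% lower by the same rule (limma, Benjamini-Hochberg), so changes in either direction were common in these libraries. With the further demand of a fold change of at least 2, Igf2 and Igfbp3 were called higher and Igfbp2 lower, against 3.95% of all tested genes called higher and 2.68% called lower. The FPKM ranges of the groups did not overlap for 6 of the 9 genes, which was so for 54.3% of all genes tested. The median log2 fold change was 0.15 for the 9 IGF genes and -0.003 for all genes.

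**Figure D1:**
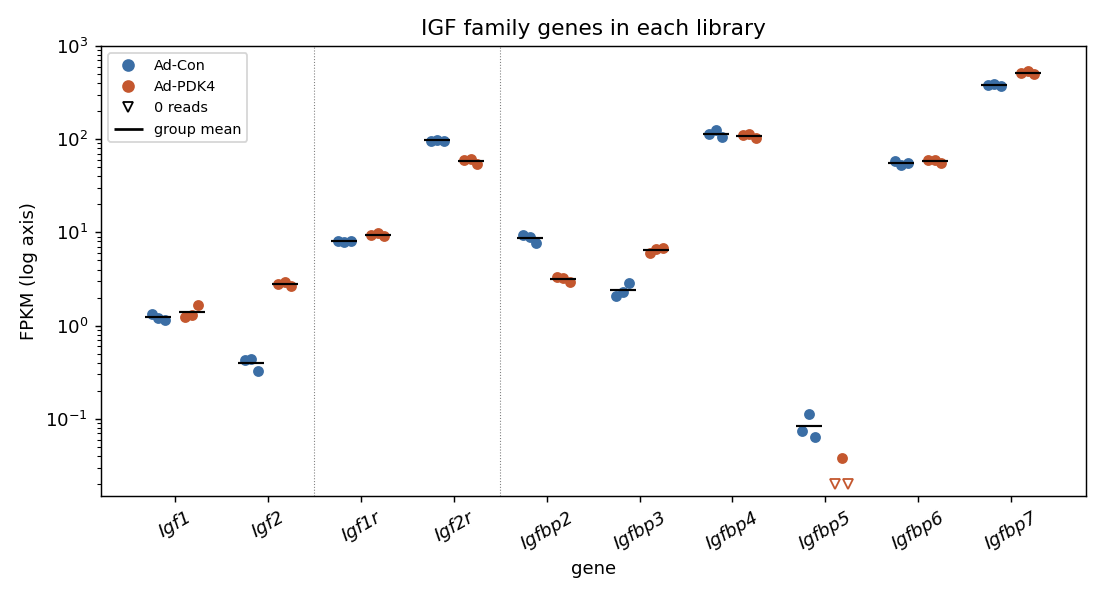
FPKM (log axis) of the 10 IGF genes in each library. Blue points are the 3 Ad-Con libraries, orange points the 3 Ad-PDK4 libraries, black lines group means, and open triangles libraries with 0 reads. The ligands are on the left, the receptors in the middle and the binding proteins on the right. Igf2 lies below Igf1 in Ad-Con and above it in Ad-PDK4, and Igfbp2 and Igfbp3 also change places.

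The sequence before the transcription start is shown for the 4 tested genes with the largest changes in size, Igf2, Igfbp2, Igfbp3 and Igf2r, so that the starts of genes that rose and genes that fell can be read side by side. The windows come from RefSeq on GRCm38.p6 and hold 250 bases before the start and 50 from it on, written 5′ to 3′ on the gene's strand. RefSeq gives 4 such starts for Igf2, of which the one nearest the 3′ end of the gene is printed, and 2 for Igfbp2, of which the first is printed. The table does not tell which start was used in these cells. Capitals mark matches, on either strand, to short motifs that were searched by their letters.
Igf2, start 4, chr7:142657447-142657746, minus strand: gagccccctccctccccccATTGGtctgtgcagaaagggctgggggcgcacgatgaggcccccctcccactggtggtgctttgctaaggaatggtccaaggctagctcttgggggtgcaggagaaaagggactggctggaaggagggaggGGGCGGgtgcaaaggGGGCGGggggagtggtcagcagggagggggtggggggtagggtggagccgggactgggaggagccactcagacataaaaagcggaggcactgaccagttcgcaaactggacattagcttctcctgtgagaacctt
Igfbp3, chr11:7213874-7214173, minus strand: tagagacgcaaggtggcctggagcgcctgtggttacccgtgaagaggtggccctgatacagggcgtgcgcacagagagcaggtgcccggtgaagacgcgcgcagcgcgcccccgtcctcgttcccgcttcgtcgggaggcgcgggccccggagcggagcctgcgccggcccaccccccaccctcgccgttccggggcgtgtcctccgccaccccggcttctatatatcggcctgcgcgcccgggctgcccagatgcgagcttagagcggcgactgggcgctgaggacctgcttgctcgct
Igfbp2, start 1, chr1:72824230-72824529, plus strand: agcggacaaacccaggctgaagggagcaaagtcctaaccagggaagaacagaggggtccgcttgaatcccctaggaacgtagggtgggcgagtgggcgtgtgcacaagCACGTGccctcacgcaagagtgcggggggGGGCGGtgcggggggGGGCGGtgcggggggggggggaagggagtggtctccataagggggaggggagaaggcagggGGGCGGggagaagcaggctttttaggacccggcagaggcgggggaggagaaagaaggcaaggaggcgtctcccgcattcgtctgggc
Igf2r, chr17:12769657-12769956, minus strand: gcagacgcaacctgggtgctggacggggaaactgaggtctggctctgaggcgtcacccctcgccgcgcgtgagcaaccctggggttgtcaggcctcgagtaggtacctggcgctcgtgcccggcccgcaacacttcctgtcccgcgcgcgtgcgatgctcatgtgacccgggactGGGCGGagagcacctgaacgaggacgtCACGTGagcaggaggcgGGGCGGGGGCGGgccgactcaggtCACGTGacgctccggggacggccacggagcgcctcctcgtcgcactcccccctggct
In these windows the capitals are GC boxes (GGGCGG, found in 35.7% of the 32851 windows of all genes), a CCAAT box (CCAAT, 37.4%), and the letters ACGTG (19.6%), which also lie within the E-box (CACGTG, 7.15%). ACGTG was the only form searched for the hypoxia response element, and GCGTG was not searched. The Igfbp2 window held 3 GC boxes and 1 E-box, 142 bases before the start. The Igf2r window held 3 GC boxes and 2 E-boxes, 48 and 7 bases before the start. The Igf2 window held a CCAAT box 231 bases and GC boxes 100 and 85 bases before the start. The Igfbp3 window held none of the 9 motifs searched, although 71.7% of its bases were G or C against a median of 52.7% over all windows. The other motifs were the TATA box (TATAAA, 13.6% of all windows), a FoxO site (TGTTTAC, 3.65%), an NF-kB site (GGANTTTCC, 1.25%), an interferon response element (TTTCNNTTT, 10.6%) and an AP-1 site (TGANTCA, 7.81%). All 10 genes had a window, 14 in all. Those of Igf2r and Igfbp2 held the E-box, and the shorter ACGTG letters were also in those of Igfbp7 and of Igf2 start 3. Igf2 start 3 also held the interferon response letters, and the windows of Igf1 and Igfbp2 start 2 the AP-1 letters. The TATAAA letters were in the Igfbp4 window 28 bases before the start. In the Igfbp6 window they lay on the opposite strand, 148 bases before the start. No window of an IGF gene held the FoxO or the NF-kB letters. A match is a run of letters and not a measured site.

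Among the tested genes of the family, the ligand Igf2 showed the largest change. Igf2, the ligand best known for its role in fetal growth and for expression from the paternal allele, lies on chromosome 7 from 142650766 to 142666816 (minus strand, GRCm38). It measured 0.429, 0.438 and 0.328 FPKM in Ad-Con and 2.79, 2.98 and 2.66 FPKM in Ad-PDK4, from 50, 44 and 34 reads against 291, 298 and 336 reads. All 3 Ad-PDK4 libraries were far above all Ad-Con libraries. The mean rose from 0.398 ± 0.0613 to 2.81 ± 0.159 FPKM (SD, n = 3 each), a ratio of 7.05, and the log2 fold change was 2.55 (SE 0.16, 95% interval 2.18 to 2.93, limma adjusted p = 1.5e-05). With a pseudocount of 1 in place of 0.1 the log2 fold change was 1.45, because the Ad-Con level is below 1 FPKM. Of the stretches of 50 bases in Igf2 transcripts, 62.1% also occur in transcripts of the overlapping genes Igf2os and Gm49394. Reads that fit more than 1 gene could therefore be missing from its level. Whether the missing share would be the same in both groups was not tested, so the fold change of Igf2 has this limit too.

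The genes overlapping Igf2 had few reads. Igf2os, on the opposite strand, had 8, 7 and 10 reads in Ad-Con and 29, 34 and 25 in Ad-PDK4, higher in every Ad-PDK4 library like Igf2 itself. It was below the level required for a test, and whether the counting used strand is not stated, so that reads of Igf2 and Igf2os cannot be told apart. Mir483, inside Igf2, had at most 3 reads in any library and Gm49394 had 0. Gm49394 lies on the same strand as Igf2, from 142650769 to 142669942, and shares sequence with it. Shared reads could be missing from Gm49394 as well, so its 0 reads do not show that it was not expressed. H19, the maternally expressed RNA that shares an imprinting centre with Igf2 and lies 72.6 kb away, was under the test level at 29 reads over the Ad-Con libraries and 34 over the Ad-PDK4 libraries.

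Igf1, the ligand that mediates much of the growth hormone effect, lies on chromosome 10 from 87858265 to 87937042 (plus strand). It measured 1.34, 1.21 and 1.16 FPKM in Ad-Con and 1.23, 1.30 and 1.65 FPKM in Ad-PDK4. The ranges overlapped. The log2 fold change was 0.15 (SE 0.16, 95% interval -0.21 to 0.52, limma adjusted p = 0.466), so that a difference in either direction within this interval could not be told from none. Its antisense gene Igf1os had 0 reads.

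The order of the ligands thus differed between the groups. The ratio of Igf2 to Igf1 in FPKM was 0.320, 0.361 and 0.283 in Ad-Con and 2.27, 2.28 and 1.61 in Ad-PDK4. By FPKM, Igf1 was the more abundant ligand transcript in every Ad-Con library and Igf2 in every Ad-PDK4 library. The summed level of both was 1.64 ± 0.142 FPKM in Ad-Con and 4.21 ± 0.157 FPKM in Ad-PDK4, and the groups did not overlap. For such single values an exact two-sided permutation test of 3 against 3 libraries cannot go below p = 0.1, so none is given. Both ligands were low beside other genes: among the genes tested, the mean of Igf2 in Ad-PDK4 stood at percentile 28.9 and that of Igf1 in the same group at percentile 16.6. Reads shared with overlapping genes could be missing from Igf2, so its level may be understated beside Igf1 and other genes. The order of the ligands, their sum and the percentile of Igf2 carry this limit.

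The receptors moved in opposite directions. Igf1r, the signalling receptor, lies on chromosome 7 from 67952827 to 68233668 (plus strand). It measured 8.07, 7.87 and 8.05 FPKM in Ad-Con and 9.42, 9.81 and 9.10 FPKM in Ad-PDK4, without overlap. The rise was small, with a ratio of means of 1.18 and a log2 fold change of 0.24 (SE 0.06, 95% interval 0.10 to 0.37, limma adjusted p = 0.0125). Insr, the closely related insulin receptor that forms hybrids with IGF1R, measured 6.79 ± 0.258 and 6.77 ± 0.111 FPKM, and the log2 fold change was -0.002 (limma adjusted p = 0.980, SE 0.06).

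Igf2r, the clearance receptor, lies on chromosome 17 from 12682406 to 12769664 (minus strand) and is, like Igf2, an imprinted gene. It measured 96.7, 98.6 and 96.5 FPKM in Ad-Con and 60.2, 62.0 and 54.6 FPKM in Ad-PDK4. The lowest Ad-Con library exceeded the highest Ad-PDK4 library by 34.5 FPKM. The log2 fold change was -0.72 (SE 0.06, 95% interval -0.85 to -0.59, limma adjusted p = 4.5e-05), a ratio of means of 0.606. Airn, the antisense RNA that silences the paternal copy of Igf2r, overlaps it and had 169, 164 and 124 reads in Ad-Con and 130, 150 and 146 in Ad-PDK4. Its ranges overlapped and its log2 fold change was -0.12 (SE 0.15, limma adjusted p = 0.538).

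The balance of receptor transcripts also differed between the groups. The ratio of Igf2r to Igf1r in FPKM was 12.0, 12.5 and 12.0 in Ad-Con and 6.39, 6.32 and 6.01 in Ad-PDK4. Igf2r remained the more abundant receptor transcript in all 6 libraries.

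Among the binding proteins, Igfbp3 and Igfbp7 rose, Igfbp2 fell, and Igfbp4 and Igfbp6 did not pass the test. Igfbp3, the main IGF carrier of the circulation, lies on chromosome 11 from 7206086 to 7213923 (minus strand). It measured 2.07, 2.29 and 2.85 FPKM in Ad-Con and 6.02, 6.68 and 6.81 FPKM in Ad-PDK4, without overlap. Its log2 fold change was 1.41 (SE 0.12, 95% interval 1.12 to 1.69, limma adjusted p = 7.7e-05), a ratio of means of 2.70. Igfbp1, its neighbour 3.54 kb away and best known as a liver product, had 0 reads in every library.

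Igfbp2, which can also bind integrins at the cell surface, lies on chromosome 1 from 72824503 to 72852474 (plus strand). It measured 9.36, 8.97 and 7.73 FPKM in Ad-Con and 3.30, 3.28 and 2.92 FPKM in Ad-PDK4. Every Ad-PDK4 library was below every Ad-Con library. The log2 fold change was -1.43 (SE 0.09, 95% interval -1.64 to -1.21, limma adjusted p = 1.8e-05), a ratio of means of 0.364.

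Igfbp5, the neighbour of Igfbp2 at a distance of 5.458 kb on the opposite strand (chromosome 1, 72857932 to 72874884), was nearly absent. It had 9, 12 and 7 reads in Ad-Con and 0, 4 and 0 reads in Ad-PDK4. All Ad-Con libraries were above all Ad-PDK4 libraries, but the gene was below the level required for a test. Over the group, 28 reads in Ad-Con against 4 in Ad-PDK4 gave a ratio per library size of 7.22 (exact 95% interval 2.53 to 28.3), an interval that covers counting error only. In a fit without the filter on low values its log2 fold change was -0.71 (limma adjusted p = 0.098), which did not pass.

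Igfbp7, a secreted protein of the vessel wall with low affinity for IGFs, was the most abundant gene of the family. It lies on chromosome 5 from 77349240 to 77408041 (minus strand). It measured 381, 395 and 372 FPKM in Ad-Con and 510, 539 and 503 FPKM in Ad-PDK4, without overlap. The log2 fold change was 0.43 (SE 0.05, 95% interval 0.32 to 0.55, limma adjusted p = 2.7e-04), a ratio of means of 1.35. Polr2b, an RNA polymerase subunit gene that overlaps Igfbp7 on the opposite strand, differed by -0.08 on the log2 scale (limma adjusted p = 0.356, SE 0.07) at 19.05 ± 0.585 and 18.0 ± 1.40 FPKM.

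Igfbp4, a binding protein known as an inhibitor of IGF action, lies on chromosome 11 from 99041244 to 99054392 (plus strand). It measured 113, 125 and 106 FPKM in Ad-Con and 110, 113 and 104 FPKM in Ad-PDK4. The ranges overlapped, and the log2 fold change was -0.07 (SE 0.07, 95% interval -0.23 to 0.09, limma adjusted p = 0.445).

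Igfbp6, which prefers IGF2 over IGF1, lies on chromosome 15 from 102144362 to 102149511 (plus strand). It measured 58.0, 53.4 and 55.6 FPKM in Ad-Con and 59.8, 59.7 and 55.2 FPKM in Ad-PDK4. Its ranges overlapped too, with a log2 fold change of 0.07 (SE 0.05, 95% interval -0.06 to 0.19, limma adjusted p = 0.376).

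**Figure D2:**
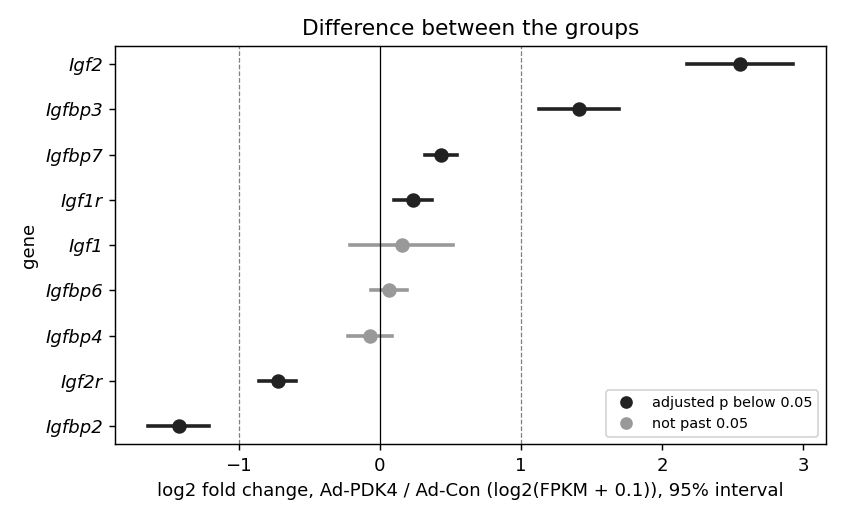
Log2 fold change of the 9 tested IGF genes, Ad-PDK4 relative to Ad-Con, on the log2(FPKM + 0.1) scale. Points are limma estimates, bars 95% intervals, black marks an adjusted p below 0.05, grey marks the others, and dashed lines mark a 2-fold change. Igf2 and Igfbp3 lie beyond the 2-fold line on the right and Igfbp2 beyond it on the left, while the intervals of Igf1, Igfbp4 and Igfbp6 include 0.

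The pool of binding protein transcripts was larger in every Ad-PDK4 library and differed in composition. The summed FPKM of the 6 binding proteins was 564 ± 19.8 in Ad-Con and 694 ± 25.5 in Ad-PDK4 (SD, n = 3 each), without overlap. Igfbp7 alone made up 67.5%, 67.6% and 68.4% of this sum in Ad-Con and 74.0%, 74.6% and 74.9% in Ad-PDK4. The share of Igfbp4 was 20.3% ± 0.940 in Ad-Con and 15.7% ± 0.289 in Ad-PDK4, although its own level did not pass the test. The share of Igfbp6 was 9.88% ± 0.640 and 8.39% ± 0.244.

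These 3 genes together made up 98.0% of the sum in Ad-Con and 98.6% in Ad-PDK4. In the small remainder, Igfbp2 held 1.54% ± 0.121 in Ad-Con and 0.456% ± 0.0223 in Ad-PDK4. Igfbp3 held 0.428% ± 0.0841 and 0.938% ± 0.0715. Igfbp2 ranked above Igfbp3 in every Ad-Con library and below it in every Ad-PDK4 library. The sum of binding protein FPKM was 346 ± 24.8 times that of the ligands in Ad-Con and 165 ± 8.36 times in Ad-PDK4. These ratios would be too high if reads are missing from Igf2, as described above.

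**Figure D3:**
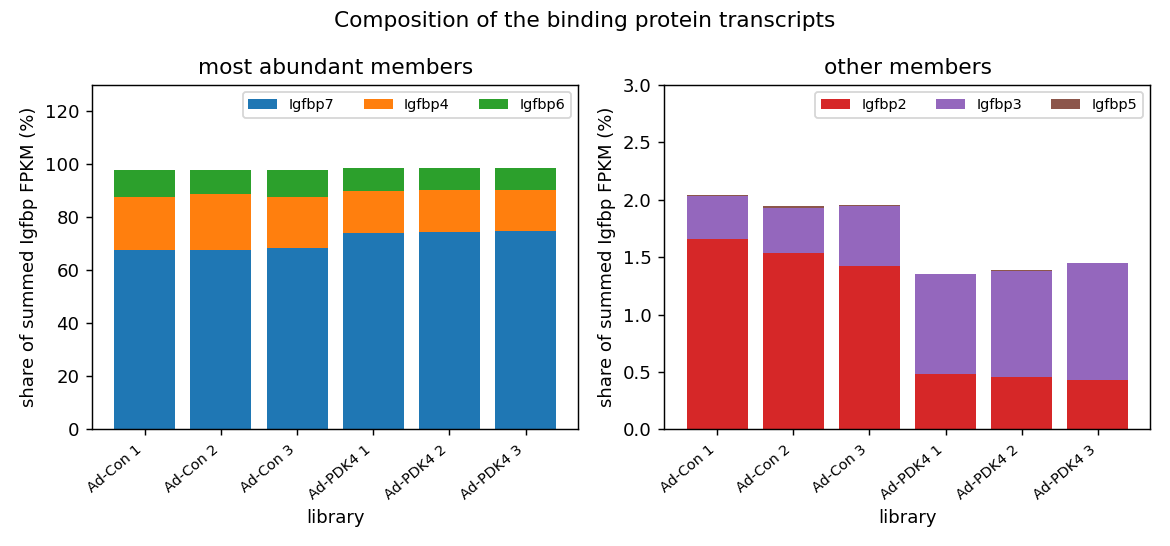
Share (%) of each binding protein in the summed FPKM of the 6 binding proteins, 1 bar per library. The left panel shows Igfbp7, Igfbp4 and Igfbp6 and the right panel, on its own axis, Igfbp2, Igfbp3 and Igfbp5. Igfbp7 takes 67.5% to 68.4% in Ad-Con and 74.0% to 74.9% in Ad-PDK4, and in the right panel the Igfbp2 part is smaller and the Igfbp3 part larger in Ad-PDK4.

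Ranked by mean FPKM, a level per gene length, the order in Ad-Con was Igfbp7, Igfbp4, Igf2r, Igfbp6, Igfbp2, Igf1r, Igfbp3, Igf1, Igf2 and Igfbp5. The ranges over libraries overlapped between the neighbours Igfbp2 and Igf1r and between no other neighbours. In Ad-PDK4 the order was Igfbp7, Igfbp4, Igf2r, Igfbp6, Igf1r, Igfbp3, Igfbp2, Igf2, Igf1 and Igfbp5, and the overlapping neighbours were Igf2r with Igfbp6 and Igfbp2 with Igf2. The place of Igf2 in either order has the limit from shared reads given above.

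Genes that act around the IGF family were taken from 6 lists written from general knowledge, and each count is read against the 21.8% higher and 20.8% lower of all genes. The first list held proteases of the binding proteins and partners of the circulating complex. Of its 12 tested genes (17 written), 4 were higher and 5 lower, with a median log2 fold change of -0.06. C1ra and C1s1, complement proteases, rose from 38.7 ± 1.99 to 123 ± 7.78 FPKM and from 76.5 ± 8.19 to 182 ± 12.0 FPKM (log2 fold changes 1.66 and 1.25, limma adjusted p = 8.9e-07 and 1.9e-05). C1s proteases can cut IGFBP5. Mmp2, a matrix metalloproteinase, fell from 321 ± 27.8 to 135 ± 5.18 FPKM (log2 fold change -1.25, limma adjusted p = 6.5e-06). Htra1, a secreted serine protease that also carries an IGFBP domain, fell from 115 ± 2.27 to 65.3 ± 2.49 FPKM (-0.82, limma adjusted p = 9.3e-06).

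Pappa, the protease of IGFBP4, was under the test level with 73 reads over the Ad-Con libraries and 27 over the Ad-PDK4 libraries. Its relative Pappa2 fell by 0.89 on the log2 scale (limma adjusted p = 0.0267) from 0.762 ± 0.0365 to 0.366 ± 0.0604 FPKM. Stc2, an inhibitor of the Pappa protease, rose by 0.49 (limma adjusted p = 0.0168). The Pappa2 call was lost in 5 settings, among them the fits that left out Ad-Con 1, Ad-Con 2, Ad-Con 3 or Ad-PDK4 3. The Stc2 call was lost without Ad-Con 1, Ad-Con 3 or Ad-PDK4 3 (limma adjusted p 0.0519 to 0.0819 in all these fits). Without Ad-Con 2 or Ad-Con 3 the number of lower genes in the list was 3. Over all genes, 2372 and 2167 were lower in these fits, against 2798 in the main fit.

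The second list held relatives that share the IGFBP domain, mainly the CCN matrix proteins. Of 8 tested genes (12 written), 4 were higher and 3 lower, with a median log2 fold change of 0.24. Htra1 was counted among the lower genes of both this list and the first. Wisp2 (Ccn5) rose from 7.81 ± 0.155 to 31.4 ± 0.837 FPKM (log2 fold change 1.99, limma adjusted p = 1.2e-07). Crim1, a membrane protein that binds bone morphogenetic proteins, rose from 37.7 ± 2.99 to 89.6 ± 5.19 FPKM (1.25, limma adjusted p = 8.0e-06), and Wisp1 (Ccn4) rose by 0.70 (limma adjusted p = 1.4e-04). Kazald1 fell by 0.88 (limma adjusted p = 9.1e-04). Nov (Ccn3) fell by 0.20 (limma adjusted p = 0.0268), a call that was lost without Ad-Con 1 or 2 or any Ad-PDK4 library and under 3 other settings (adjusted p 0.0514 to 0.0982).

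The third list held regulators of the IGF genes and their RNAs. Of 10 tested genes (13 written), 3 were higher and 0 lower, with a median log2 fold change of 0.12. Socs2, a feedback inhibitor of growth hormone signalling, rose from 0.531 ± 0.101 to 1.08 ± 0.0699 FPKM (log2 fold change 0.92, limma adjusted p = 0.0102). Igf2bp2, an RNA-binding protein named for its binding to Igf2 mRNA, rose from 14.2 ± 0.388 to 21.4 ± 0.569 FPKM (0.59, limma adjusted p = 7.7e-05). Stat5b, a transcription factor downstream of the growth hormone receptor, rose by 0.40 (limma adjusted p = 8.8e-04). Ghr, the growth hormone receptor, measured 24.1 ± 1.0 and 25.7 ± 0.560 FPKM (log2 fold change 0.09, limma adjusted p = 0.184).

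The fourth list followed the receptor signal to AKT and mTOR. Of 36 tested genes (38 written), 14 were higher and 2 lower, with a median log2 fold change of 0.10. Rictor, the defining subunit of mTORC2, rose from 3.99 ± 0.329 to 6.18 ± 0.455 FPKM (log2 fold change 0.62, limma adjusted p = 1.1e-03). Phlpp2, a phosphatase that removes phosphate from AKT, rose by 0.57 (limma adjusted p = 6.2e-03), and Pik3cb, a catalytic subunit of PI3K, also by 0.57 (limma adjusted p = 6.4e-04). The regulatory subunits Pik3r3 and Pik3r2 fell by 0.48 and 0.34 (limma adjusted p = 5.1e-03 and 0.0160).

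The kinase genes Akt1 and Akt2 had log2 fold changes of -0.02 and -0.01 (limma adjusted p = 0.782 and 0.933). The number of higher signalling genes was 9 without Ad-Con 1, Ad-Con 3 or Ad-PDK4 1. Over all genes, 2366, 2375 and 2324 were higher in these fits, against 2928 in the main fit. The Pik3r2 call was lost without Ad-Con 2 or Ad-PDK4 1 (adjusted p = 0.0508 and 0.0536), which left 1 lower gene.

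The fifth list held FoxO transcription factors, which AKT restrains, and genes known as their targets. Of 22 tested genes (24 written), 3 were higher and 13 lower, with a median log2 fold change of -0.37, and Pdk4 was among those lower. Insr and Irs2, which did not pass, were also in the fourth list. Sesn1, a stress-induced inhibitor of mTORC1, fell from 22.9 ± 1.02 to 8.76 ± 0.195 FPKM (log2 fold change -1.38, limma adjusted p = 1.4e-06). Bcl2l11, which encodes the death protein BIM, fell from 6.38 ± 0.227 to 3.15 ± 0.346 FPKM (-1.0, limma adjusted p = 1.2e-04), and Sesn3 from 15.1 ± 0.284 to 7.82 ± 0.175 FPKM (-0.94, limma adjusted p = 7.6e-06). In the other direction, Bcl6 rose by 0.68, Klf15 by 0.56 and Sod2, the mitochondrial superoxide dismutase, by 0.45 (limma adjusted p = 9.2e-04, 2.9e-04 and 2.2e-03). Of the factors themselves, Foxo4 fell by 0.29 (limma adjusted p = 4.5e-03), while Foxo1, Foxo3 and Foxo6 had log2 fold changes of -0.27, -0.05 and -0.67 (limma adjusted p = 0.0504, 0.626 and 0.116).

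The sixth list held genes of mannose 6-phosphate sorting, the other task of IGF2R. Of 17 tested genes, 3 were higher and 4 lower, with a median log2 fold change of -0.05, near the shares of all genes. Sort1, another receptor of the sorting route, fell by 0.52 (limma adjusted p = 2.7e-04), whereas M6pr, the small mannose 6-phosphate receptor, measured 33.7 ± 1.14 and 37.6 ± 2.24 FPKM (log2 fold change 0.16, limma adjusted p = 0.0666). The adaptor genes Gga3, Ap1s1 and Ap1g1 rose by 0.58, 0.37 and 0.18 (limma adjusted p = 2.9e-03, 1.9e-03 and 0.0294). Gga2 fell by 0.28 and Gnptg, a subunit of the enzyme that makes the tag, by 0.23 (limma adjusted p = 0.0203 and 0.0237). The calls of Ap1g1, Gga2 and Gnptg were each lost when single libraries were left out: any Ad-Con library, Ad-PDK4 1 or Ad-PDK4 3 for Ap1g1, Ad-Con 2, Ad-Con 3 or Ad-PDK4 1 for Gga2, and Ad-Con 1, Ad-Con 2, Ad-PDK4 1 or Ad-PDK4 3 for Gnptg. With quantile normalization Ap1g1 differed by 0.11 on the log2 scale (limma adjusted p = 0.157), and its call was also lost without a filter and with equal sums without mitochondrial genes. The list had 5 higher genes without Ad-PDK4 2, 2 lower genes without Ad-Con 1 or Ad-Con 3, and 1 lower gene without Ad-Con 2 or Ad-PDK4 1. Over all genes, 2700 were higher without Ad-PDK4 2, against 2928 in the main fit. Lower over all genes were 2251, 2372 and 2167 without Ad-Con 1, 2 and 3, and 2232 without Ad-PDK4 1, against 2798.

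**Figure D4:**
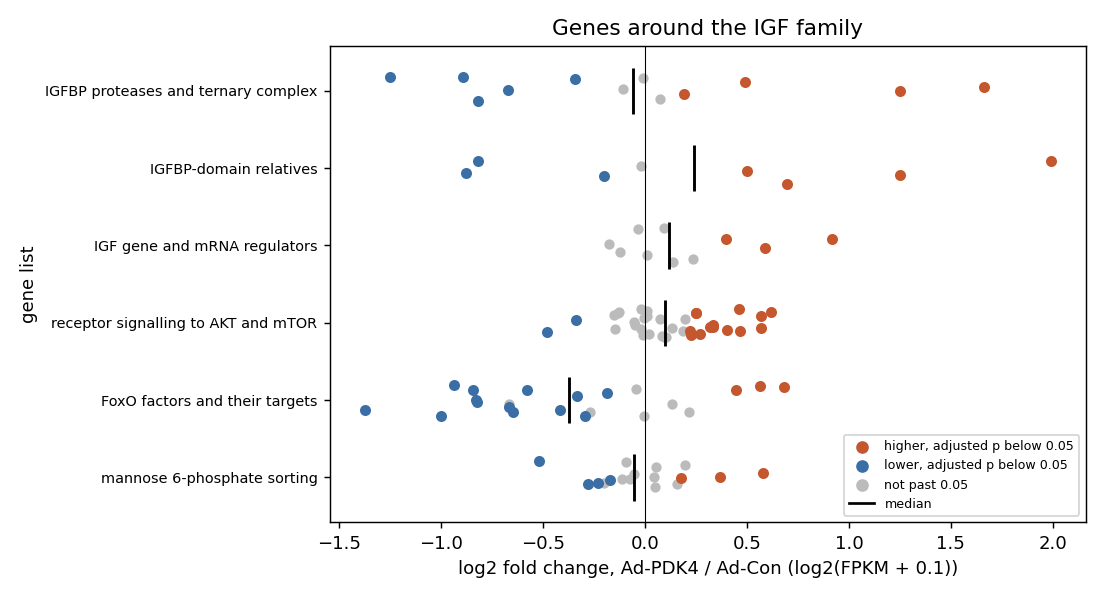
Log2 fold change, Ad-PDK4 relative to Ad-Con, of every tested gene of the 6 lists around the IGF family. Orange points are higher and blue points lower at an adjusted p below 0.05, grey points did not pass, and black bars are medians. The FoxO list lies mostly to the left, with a median of -0.37, and the other medians lie between -0.06 and 0.24.

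The genes next to the IGF genes on the chromosomes were taken as the nearest tested protein-coding gene on either side. Of 18 such genes, 4 were higher, 5 lower and 9 did not pass (limma, adjusted p of 0.05), near the 21.8% higher and 20.8% lower of all genes tested. Not all of the 18 were close: distances ran from 8.13 kb (Spryd3, beside Igfbp6) to 8604 kb (Cenpc1, beside Igfbp7). Nt5dc3 lay 1020 kb from Igf1 and Tns1 1058 kb from Igfbp2. Mrpl23 and Cd81, on either side of Igf2, had log2 fold changes of -0.07 and -0.09 (limma adjusted p = 0.526 and 0.129), and Map3k4 and Mrpl18, beside Igf2r, 0.02 and 0.03 (0.878 and 0.784). Rpl37a and Tns1, the tested genes around Igfbp2 and Igfbp5, had log2 fold changes of -0.21 and -0.01 (limma adjusted p = 0.243 and 0.897).

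Of the genes nearest to Igfbp3, the adenylate cyclase gene Adcy1, at 27.6 kb, rose by 0.68 and Tns3, a focal adhesion gene at 1218 kb, by 0.79 (limma adjusted p = 1.2e-03 and 1.0e-04). Igfbp4 did not pass, but its neighbours moved apart: Tns4, at 11.3 kb, rose by 1.11 and Top2a, a topoisomerase of dividing cells at 17.1 kb, fell by 0.72 (limma adjusted p = 1.1e-04 and 1.2e-03). Beside Igf1r, Arrdc4 rose by 1.22 and Ttc23 fell by 0.45 (limma adjusted p = 1.9e-05 and 2.8e-03). Beside Igf1, Parpbp fell by 1.11 (limma adjusted p = 4.5e-03) and Nt5dc3 had a log2 fold change of -0.13 (0.242). Csad, beside Igfbp6, fell by 0.32, and Noa1, beside Igfbp7, by 0.22 (limma adjusted p = 0.0156 and 0.0373), while Spryd3 and Cenpc1 on the other sides had log2 fold changes of 0.11 and 0.10 (0.228 and 0.427).

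Genes whose log2 values over the 6 libraries were most like those of the family's largest rise and largest fall were picked as a description. For Igf2 these were Psmb9, an immunoproteasome subunit, Xdh, xanthine dehydrogenase, and Tgfbr3, a TGF-beta co-receptor, with Pearson r of 0.9997, 0.9994 and 0.9994. For Igfbp2 they were Podxl2, Lgr6 and Ace, the angiotensin-converting enzyme, with r of 0.9996, 0.9994 and 0.9994. The 6 points share 2 groups of 3 libraries, and any gene that differs strongly between the groups gives a high r: 336 genes reached at least 0.99 with Igf2 and 132 with Igfbp2. Psmb9 rose from 1.23 to 8.53 FPKM in the means and Ace fell from 2.57 to 0.827 FPKM.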

How the data were processed

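RNA was sequenced from 6 libraries of cells labelled as mouse vascular smooth muscle cells, 3 Ad-Con and 3 Ad-PDK4, grouped by the treatment label. The deposited values are FPKM as calculated by the authors for single libraries, beside the gene length they used. The submitters' processing notes name CASAVA 1.8, fastp, HISAT2 2.0.5, featureCounts 1.5.0-p3, DESeq2 1.20.0 and GRCm39, whereas the table's coordinates are those of GRCm38. Of 54409 identifiers found in the mouse GENCODE release M21, 98.3% have the same coordinates there, as have all 10 IGF genes. The annotation release and the strand setting are not stated, and the labels and the methods name different library kits. FPKM times gene length was divided by its smallest nonzero value in each library, which was taken as 1 read. This gave whole reads for 100% of the nonzero values (tolerance 0.01 reads). The library size behind the FPKM was proportional to the median-of-ratios size factor in every library, so the deposited FPKM already carried this scaling. No pair of libraries agreed within sampling noise (chi-square per degree of freedom 4.17 to 11.7 within groups), so each counted as 1 replicate.

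The test was run on log2(FPKM + 0.1) by limma 3.58.1 (trend and robust) in R 4.3.3 over all 6 libraries, with Benjamini-Hochberg adjustment over the 13423 genes that averaged an FPKM of 0.5 or more. Fold changes on this scale understate the change of low genes. A gene passed at an adjusted p below 0.05 and was called with a fold change of at least 2 as well. Scripts were tested on simulated data. The IGF genes, the gene lists and the tests were chosen with earlier results of these data known. The text names all 10 IGF genes, Pdk4, up to 3 genes per direction and list, overlapping and neighbouring genes, and the 3 genes most like the IGF genes with the largest rise and fall. Insr, Akt1, Akt2, Ghr, M6pr, Pappa, H19, Igfbp1, Foxo1, Foxo3, Foxo4 and Foxo6 are list genes named outside this rule, after their values were seen, and the cell type markers were named as a check. Windows of 300 bases were read from RefSeq. The same replicate numbers occur in both groups, and deviations of libraries with the same number correlated at -0.046, -0.031 and -0.001. The numbers thus showed no sign of pairing, which so few libraries cannot exclude.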

Additional observations from a re-analysis of the deposited data

How the results depend on the processing

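In 17 alternatives (pseudocounts of 1 and 0.01, no filter, a mean FPKM of at least 5, median-of-ratios scaling, TPM, quantile normalization, equal sums without mitochondrial genes, moderation without trend or robust, a replicate block, limma-voom on recovered reads, and each library left out) the 9 tested IGF genes kept their direction and their side of the threshold wherever they could be tested. Median-of-ratios scaling could change almost nothing, because the deposited FPKM already carried it, so it is no independent check. Igf1, Igf2 and Igfbp3 could not be tested at a mean FPKM of at least 5, which left 2 IGF genes higher and 0 called higher. Of all 7731 genes tested at that limit, 2162 were higher and 258 called higher. The log2 fold change ranged from 1.45 to 2.81 for Igf2, 1.14 to 1.53 for Igfbp3, -1.51 to -1.22 for Igfbp2, -0.76 to -0.67 for Igf2r, 0.40 to 0.59 for Igfbp7 and 0.18 to 0.28 for Igf1r (highest limma adjusted p 0.0437). With the replicate block, the IGFBP protease list had 3 lower genes in place of 5, and no call of an IGF gene changed. The signalling list had 9 higher genes in place of 14 without a filter and without trend or robust, and 1 lower gene in place of 2 at a mean FPKM of at least 5. The mannose 6-phosphate list had 5 higher genes in place of 3 with TPM and with limma-voom. With 1 library left out, the counts ranged from 3 to 4 for lower proteases, 9 to 13 for higher and 1 to 3 for lower signalling genes, and 2 to 5 for higher and 1 to 5 for lower mannose 6-phosphate genes. The counts over all genes moved too. The main fit had 2928 higher and 2798 lower genes of 13423. Leaving out 1 library gave 2324 to 2700 higher and 2167 to 2694 lower. Without a filter 2677 of 25202 genes were higher, and 2715 without trend or robust. TPM gave 3361 higher, limma-voom 3221, and the replicate block 2626 lower. Over all genes, 530 were called higher and 360 lower, against 258 and 114 at a mean FPKM of at least 5, 153 lower with a pseudocount of 1, and 553 and 407 with limma-voom on recovered reads. The cause of these differences was not tested. The fit at a mean FPKM of at least 5 took in 7731 genes, and those with a pseudocount of 1 and with limma-voom 13423. Depth limits the values of Igfbp5, Igf2os and Pappa, which rest on few reads, and counting intervals leave out the spread between cultures.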
